A study of Homo sapiens with 18 samples.

Results

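Small MAF proteins are basic leucine zipper transcription factors that lack an activation domain of their own, and they bind DNA as homodimers or as heterodimers with factors of the Cap'n'Collar (CNC) and BACH families. The 10 genes described here were chosen by gene symbol out of 58870 genes in the count table. They are the small MAFs MAFG, MAFF and MAFK, the CNC factors NFE2L1, NFE2L2 and NFE2L3, the repressors BACH1 and BACH2, the NRF2 inhibitor KEAP1, and SIRT7, a deacetylase gene that overlaps MAFG. All 10 passed the filter on low counts in each line.

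RNA sequencing was done on the human melanoma cell lines WM164, SKMEL28 and A375. Each line carried a lentiviral construct for Myc-DDK-tagged MAFG, which holds the coding sequence alone, or a GFP control construct. The methods describe a GFP vector with the EF1α promoter and blasticidin resistance, in which MAFG then took the place of GFP. There were 3 libraries for each of the 6 conditions, 18 in all. Nothing in the sources says that libraries of one condition came from separate cultures, so p-values measure only the spread between these libraries, which may be technical.

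A library held 20122172 to 39025042 counts. Levels are library-scaled counts (CPM, with TMM normalization over the 18 libraries), given as mean ± SD with n = 3. Changes are log2 values of MAFG over GFP with their standard error (SE) from edgeR, and p-values are adjusted by Benjamini and Hochberg's method over every gene tested. Melanocyte lineage markers were high in WM164 and SKMEL28 cells, with MITF at 64.06 TPM or more in every library. In A375 cells MLANA, TYR and DCT were at 0 in every library, PMEL reached 0.47 TPM at most, and SOX10 was at 2.24 to 3.22 TPM with GFP and at 29.31 to 34 TPM with MAFG. S100B reached 0.93 TPM at most there. MITF was detected in A375 cells, at 8.33 to 10.39 TPM with GFP and 6.17 to 14.34 TPM with MAFG. PRAME was at 13.79 to 20.13 TPM with GFP and 13.55 to 15.6 TPM with MAFG in these cells. In WM164 cells MITF, PMEL, MLANA, TYR and DCT were lower in every MAFG library than in any GFP library (MLANA 83.58 to 146.1 TPM with GFP and 22.64 to 25.96 with MAFG), and S100B was higher. In SKMEL28 cells MITF, PMEL, TYR, DCT and PRAME were lower in the same way and S100B was higher. The part of these markers in the results was not tested. The keratinocyte, immune, endothelial and fibroblast markers stayed below 1 TPM, except DCN, which reached 4.51 TPM in an A375 library with MAFG.

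In this network, NRF2 (the product of NFE2L2) pairs with a small MAF on antioxidant response elements and switches on genes of glutathione synthesis, iron storage and detoxification. KEAP1 holds NRF2 in the cytoplasm and hands it to a ubiquitin ligase. NRF1 (NFE2L1) is tethered to the endoplasmic reticulum and drives proteasome genes once it has been processed. BACH1 and BACH2 pair with the same small MAFs and repress from the same elements, and BACH1 leaves DNA when it binds heme.

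The 3 small MAF genes code for near-identical DNA-binding regions. The stretch shown was picked as the 60-base window of MAFG's coding sequence most like MAFF and MAFK together. Its few differences follow from that choice and do not stand for the whole coding sequence. The lines below give bases 175 to 234 of each coding sequence, with capitals where a base differs from MAFG. The positions on GRCh38 are chr17:81922860-81922919 on the minus strand for MAFG, chr22:38214558-38214617 on the plus strand for MAFF and chr7:1540079-1540138 on the plus strand for MAFK.
MAFG: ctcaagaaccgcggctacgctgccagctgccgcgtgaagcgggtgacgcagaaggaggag
MAFF: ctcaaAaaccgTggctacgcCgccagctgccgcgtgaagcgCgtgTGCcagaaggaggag
MAFK: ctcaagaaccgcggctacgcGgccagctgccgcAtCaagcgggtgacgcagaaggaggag
MAFF differed from MAFG at 7 and MAFK at 3 of these 60 bases. Over the whole aligned coding sequence MAFG was 83.3% identical to MAFK and 74.3% to MAFF. The longest run shared by MAFG and MAFK was 37 bases.

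MAFG lies on chromosome 17 from 81918270 to 81927735 on the minus strand of GRCh38 and has 5241 exonic bases in GENCODE release 44, of which 486 (9.3%) are coding. In WM164 cells MAFG was at 25.6, 28.8 and 23.0 CPM in the GFP libraries and at 56.0, 55.4 and 47.8 CPM in the MAFG libraries. In SKMEL28 cells it was at 26.2, 26.0 and 20.1 CPM with GFP and at 38.9, 35.8 and 37.3 CPM with MAFG. In A375 cells it was at 23.7, 24.6 and 32.7 CPM with GFP and at 56.3, 47.9 and 37.9 CPM with MAFG. Every MAFG library was above every GFP library of its line, and the gap was smallest in A375 cells.

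The change of MAFG was 1.04 ± 0.09 (SE, adjusted p = 6.37e-08 from edgeR) in WM164 cells. In SKMEL28 cells it was 0.64 (SE 0.097, adjusted p = 0.000128). In A375 cells it was 0.802 (SE 0.17), and the adjusted p of 0.0655 missed the threshold of 0.05. That call depended on the fit: the A375 value passed with DESeq2 (adjusted p = 0.000768) and in one edgeR model of all 18 libraries (adjusted p = 0.00134). It also passed without A375 MAFG replicate 1, at 0.69 and adjusted p = 0.0247, and without A375 MAFG replicate 3, at 0.93 and adjusted p = 0.0442. In these bulk samples a change in the share of expressing cells and a change in RNA per cell cannot be told apart. The test of the difference in response between lines did not pass for MAFG in any pair, with adjusted p from 0.221 to 0.693.

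The deposited TPM values gave larger changes of the same gene. MAFG was at 2.50, 3.51 and 2.66 TPM in the GFP libraries of WM164 and at 27.52, 25.08 and 20.92 TPM in its MAFG libraries. In SKMEL28 cells it went from 4.22, 4.43 and 3.23 TPM to 14.10, 17.47 and 19.35 TPM, and in A375 cells from 4.20, 3.94 and 4.52 TPM to 22.43, 25.11 and 28.19 TPM. In WM164 cells the means stood in a ratio of 8.48 by TPM and 2.06 by CPM. In SKMEL28 cells these ratios were 4.29 and 1.55, and in A375 cells 5.98 and 1.75. With limma on log2(TPM + 1), the MAFG change passed in each line, at 2.71 in WM164 (adjusted p = 2.59e-06), 1.86 in SKMEL28 (adjusted p = 0.000854) and 2.33 in A375 cells (adjusted p = 0.000749). The difference between WM164 and SKMEL28 also passed on this scale, at 0.86 (adjusted p = 0.0105), where the median of all genes lay at 0.26.

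The counts behind 1 TPM, divided by the same quantity for the median gene of the library, separated the constructs. This ratio was between 2.45 and 2.50 in all 9 GFP libraries and between 0.513 and 1.02 in the 9 MAFG libraries. On the log2 scale it changed by -1.86 in WM164 cells, by -1.63 in SKMEL28 cells and by -1.87 in A375 cells, the lowest of 9261 genes in each line. The measure was chosen after the values had been seen and is given as a description. The ratio of counts to TPM scales with the length by which a gene's reads are divided, and the annotated MAFG transcripts are 5061, 1743 and 570 bases long. Counts per gene do not separate construct from endogenous MAFG reads, and transcript values were not analysed here.

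SIRT7 shares 105 exonic bases with MAFG on the same strand, 2.0% of MAFG's exonic bases and none of its coding bases. The chromatin deacetylase gene was at 12.2 ± 0.82 CPM with GFP and 12.4 ± 0.29 with MAFG in WM164 cells. In SKMEL28 cells it was at 9.54 ± 0.47 and 9.91 ± 1.71 CPM, and in A375 cells at 12.6 ± 2.703 and 12.2 ± 2.27 CPM. The libraries of both constructs overlapped in each line, and no SIRT7 response passed (adjusted p = 0.876, 0.809 and 0.997). Its counts per TPM, on the same relative scale, were 0.514 to 0.714 with GFP and 0.505 to 0.734 with MAFG. With MAFG and SIRT7 counts summed, the change passed in WM164 (0.78, adjusted p = 4.44e-07) and SKMEL28 (0.49, adjusted p = 0.000329) but not in A375 cells (0.58, adjusted p = 0.235).

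**Figure D1:**
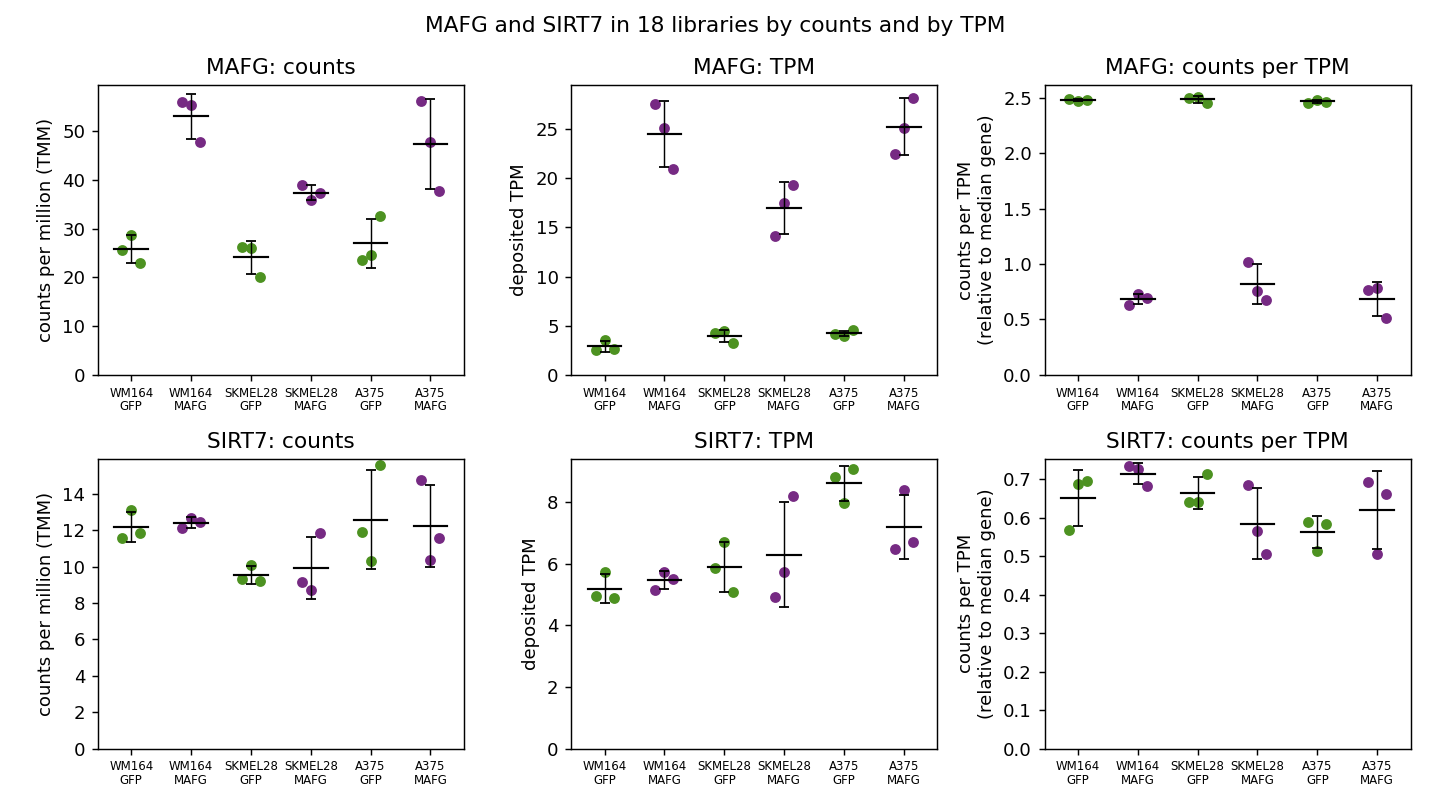
MAFG (top) and SIRT7 (bottom) in each of 18 libraries as CPM, as deposited TPM and as counts per TPM relative to the library's median gene. Points are libraries (green GFP, purple MAFG), lines are means and bars are SD (n = 3). MAFG rises further in TPM than in CPM and its counts per TPM fall from about 2.5 to 1.02 or less, while the SIRT7 libraries overlap.

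Among the 10 genes, 7 passed an adjusted p of 0.05 in WM164 cells (5 higher, 2 lower) and 7 passed in SKMEL28 cells (4 higher, 3 lower). In A375 cells 0 passed with edgeR. Over all genes tested, 31.8% passed in WM164 cells, 29.9% in SKMEL28 cells and 0.843% in A375 cells. At an unadjusted edgeR p under 0.05 the only member in A375 cells was MAFG, beside 987 of 15779 genes tested. MAFG was also the 1 member called there by DESeq2, beside 278 of 15779 genes. With the added limit of a fold change above 2, MAFG and BACH2 passed in WM164 cells and BACH2 in SKMEL28 cells, against 6.94% and 4.74% of all genes, and none passed it in A375 cells (0.665%). The libraries of both constructs did not overlap for 7 members in WM164 (43.4% of all genes), for 7 in SKMEL28 (43.0%) and for 1, MAFG, in A375 cells (12.3%).

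The number of A375 calls over all genes moved with single libraries, from 133 with all 6 to between 59 and 83 without any one of the others and to 393 without MAFG replicate 1. That library was also apart from its 2 replicates in several members: NFE2L2 was at 38.7 CPM there against 58.6 and 65.0 CPM, and MAFK at 24.2 against 15.9 and 15.1 CPM.

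**Figure D2:**
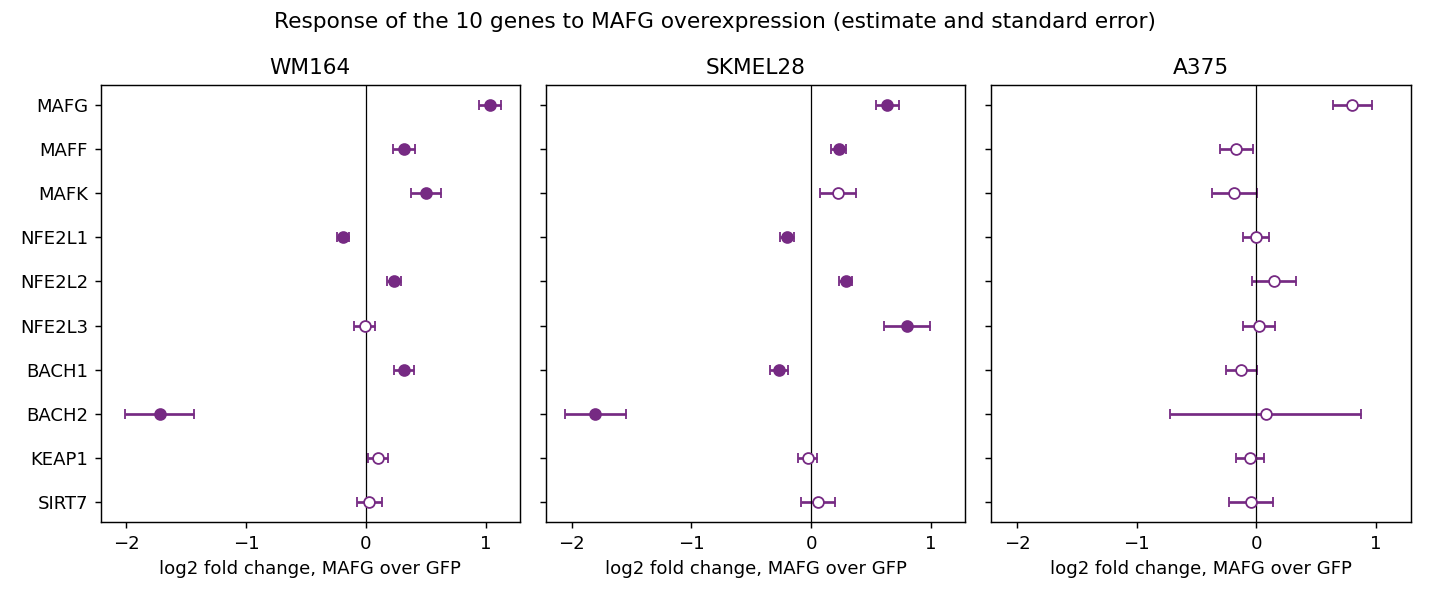
Log2 fold change of the 10 genes, MAFG over GFP, in each line, with the SE from edgeR. Filled points passed an adjusted p of 0.05. BACH2 is the lowest point in WM164 (-1.72) and SKMEL28 (-1.803), and no point is filled in A375.

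BACH2, the repressor best known from B lymphocytes, showed the largest change of the 10 genes by counts in WM164 and SKMEL28 cells. In WM164 it was at 3.03, 4.01 and 3.99 CPM with GFP and at 0.700, 1.37 and 1.27 CPM with MAFG, from 85 to 121 and from 20 to 41 counts. In SKMEL28 cells it was at 3.83, 4.77 and 6.35 CPM with GFP and at 1.201, 1.51 and 1.58 CPM with MAFG. The groups stood apart in both lines, and BACH2 fell by 1.72 on the log2 scale in WM164 (SE 0.29, adjusted p = 0.000163) and fell by 1.803 in SKMEL28 cells (SE 0.25, adjusted p = 5.87e-05). Leaving out any one library kept both calls, with changes of -1.89 to -1.48 and -1.96 to -1.58. In A375 cells BACH2 had 5 to 26 counts per library, and its change of 0.08 had an SE of 0.798. The difference of the A375 response from WM164 was 1.802 (SE 0.64, adjusted p = 0.0878) and from SKMEL28 1.88 (SE 0.64, adjusted p = 0.0692), so neither passed with edgeR. Both passed with DESeq2 (adjusted p = 0.035 and 0.0244). BACH2 was below the TPM filter and was not tested on that scale. It was at 0.28, 0.61 and 0.25 TPM with GFP and at 0.07, 0.15 and 0.36 TPM with MAFG in WM164 cells, which overlapped, and at 0.67, 1.34 and 1.31 TPM and 0.10, 0.16 and 0.31 TPM in SKMEL28 cells, which did not.

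BACH1, the heme-sensing repressor, moved in opposite directions in WM164 and SKMEL28 cells. It was at 29.2, 34.9 and 35.1 CPM with GFP and at 39.2, 44.4 and 40.4 CPM with MAFG in WM164 (0.32 on the log2 scale, SE 0.08, adjusted p = 0.00721). In SKMEL28 it was at 42.7, 46.2 and 44.8 CPM with GFP and at 37.3, 34.4 and 39.2 CPM with MAFG (-0.27 on the log2 scale, SE 0.07, adjusted p = 0.0114). The MAFG libraries were all above the GFP libraries in WM164 and all below them in SKMEL28 cells. The difference between the 2 responses was 0.59 (SE 0.14, adjusted p = 0.00599) and passed without any one of 12 libraries. Each single-line call was lost without 1 library, WM164 MAFG replicate 2 (adjusted p = 0.0552) or SKMEL28 MAFG replicate 2 (adjusted p = 0.0659). Both were also lost on the log2(TPM + 1) scale, at 0.457 in WM164 (adjusted p = 0.0895) and -0.439 in SKMEL28 (adjusted p = 0.0662), and the SKMEL28 call in the model of 18 libraries (adjusted p = 0.0666). In A375 cells BACH1 was at 26.3 ± 0.71 CPM with GFP and 24.1 ± 3.02 with MAFG, and the change did not pass.

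NFE2L3, which codes for the CNC factor NRF3, rose in SKMEL28 cells, where its level was lowest. It was at 2.77, 2.81 and 3.04 CPM there with GFP and at 4.57, 5.34 and 5.10 CPM with MAFG, from 57 to 88 and from 136 to 149 counts. The change was 0.80 (SE 0.19, adjusted p = 0.00449). In WM164 cells NFE2L3 was at 32.5 ± 3.20 CPM with GFP and 32.2 ± 2.24 with MAFG, and in A375 cells at 19.1 ± 2.39 and 19.4 ± 1.82 CPM. The response in SKMEL28 exceeded that in WM164 by 0.81 (WM164 minus SKMEL28 -0.81, SE 0.18, adjusted p = 0.00404) and that in A375 by 0.78 (A375 minus SKMEL28 -0.78, SE 0.18, adjusted p = 0.00802). Both differences failed on the log2(TPM + 1) scale (adjusted p = 0.272 and 0.193). NFE2L3 shares 28.1% of its exonic bases with HNRNPA2B1 on the opposite strand, and the sources disagree on whether the library kit kept strand.

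NFE2L2, which codes for NRF2, rose in WM164 and SKMEL28 cells. In WM164 it was at 123.4, 131.1 and 141.8 CPM with GFP and at 155.2, 154.0 and 156.1 CPM with MAFG (0.23 on the log2 scale, SE 0.06, adjusted p = 0.00506). In SKMEL28 it was at 164.3, 169.3 and 175.5 CPM with GFP and at 210.9, 204.0 and 206.8 CPM with MAFG (0.29 on the log2 scale, SE 0.05, adjusted p = 0.000839). The groups did not overlap in either line. In A375 cells it was at 48.9 ± 3.50 and 54.1 ± 13.8 CPM, with overlapping libraries. NFE2L2 shares 23.4% of its exonic bases with HNRNPA3 on the opposite strand and 13.6% with the lncRNA ENSG00000213963 on the same strand. Neither call was kept on the log2(TPM + 1) scale (0.355, adjusted p = 0.0876 in WM164 and 0.096, adjusted p = 0.468 in SKMEL28). Both were also lost in the edgeR model of 18 libraries (adjusted p = 0.226 in WM164 and 0.111 in SKMEL28).

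NFE2L1, the proteasome regulator, fell in the same 2 lines. It was at 217.7, 212.0 and 203.8 CPM with GFP and at 181.0, 190.9 and 183.4 CPM with MAFG in WM164, and fell by 0.19 on the log2 scale (SE 0.05, adjusted p = 0.00983). In SKMEL28 it was at 251.5, 235.1 and 236.5 CPM with GFP and at 215.2, 205.3 and 208.0 CPM with MAFG, and fell by 0.20 (SE 0.06, adjusted p = 0.0118). The WM164 change turned to 0.08 on the log2(TPM + 1) scale, where the median of all genes lay at 0.14, and no longer passed. The WM164 call was lost without MAFG replicate 1 (adjusted p = 0.0579), and the SKMEL28 call without GFP replicate 1 (adjusted p = 0.0702) or MAFG replicate 2 (adjusted p = 0.0629). Both NFE2L1 calls were lost in the edgeR model of 18 libraries (adjusted p = 0.119 in WM164 and 0.091 in SKMEL28).

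KEAP1 did not pass in any line. The NRF2 inhibitor was at 34.3 ± 3.17 CPM with GFP and 36.8 ± 2.68 with MAFG in WM164, at 26.8 ± 0.22 and 26.3 ± 1.16 in SKMEL28, and at 44.8 ± 0.26 and 43.4 ± 7.15 in A375 cells. The libraries overlapped in each line.

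MAFF and MAFK, the other small MAFs, rose with MAFG in WM164 cells. MAFF was at 17.6, 15.6 and 16.8 CPM with GFP and at 19.3, 21.5 and 21.5 CPM with MAFG there (0.32 on the log2 scale, SE 0.09, adjusted p = 0.0126). MAFK was at 9.995, 7.70 and 9.09 CPM with GFP and at 13.8, 12.8 and 11.3 CPM with MAFG (0.50 on the log2 scale, SE 0.13, adjusted p = 0.00512). In SKMEL28 cells MAFF was at 47.9, 49.0 and 46.9 CPM with GFP and at 58.4, 56.3 and 53.6 CPM with MAFG (0.23 on the log2 scale, SE 0.06, adjusted p = 0.013), while MAFK was at 9.35 ± 0.55 and 10.9 ± 2.38 CPM and did not pass. In A375 cells MAFF was at 16.6 ± 2.23 and 14.8 ± 0.49 CPM and MAFK at 20.7 ± 3.39 and 18.4 ± 5.08 CPM, and neither passed. The MAFF response differed between A375 and WM164 cells (A375 minus WM164 -0.48, SE 0.14, adjusted p = 0.0311), a call that was lost without 7 of 12 libraries taken singly. The MAFF call in WM164 was lost without GFP replicate 2 (adjusted p = 0.0602), MAFG replicate 2 (adjusted p = 0.0575) or MAFG replicate 3 (adjusted p = 0.0548), and the one in SKMEL28 without MAFG replicate 1 (adjusted p = 0.0633). The SKMEL28 MAFF call was also lost on the log2(TPM + 1) scale (0.043, adjusted p = 0.775) and in the model of 18 libraries (adjusted p = 0.108), and the WM164 MAFK call in the latter (adjusted p = 0.074). The test of the difference between responses called 2 of 10 genes for A375 against WM164 (9.21% of all genes), 1 for A375 against SKMEL28 (9.51%) and 2 for WM164 against SKMEL28 (13.7%).

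On GRCh38 the partner genes lie at chr22:38200767-38216507 (MAFF, plus strand), chr7:1530702-1543043 (MAFK, plus), chr17:48048329-48061545 (NFE2L1, plus), chr2:177218667-177392756 (NFE2L2, minus) and chr7:26152198-26187137 (NFE2L3, plus). BACH1 lies at chr21:29194071-29630751 (plus), BACH2 at chr6:89926528-90296843 (minus), KEAP1 at chr19:10486125-10503558 (minus) and SIRT7 at chr17:81911939-81921323 (minus). MAFK shares 18.1% of its exonic bases with TMEM184A and MAFF 5.8% with PLA2G6.

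**Figure D3:**
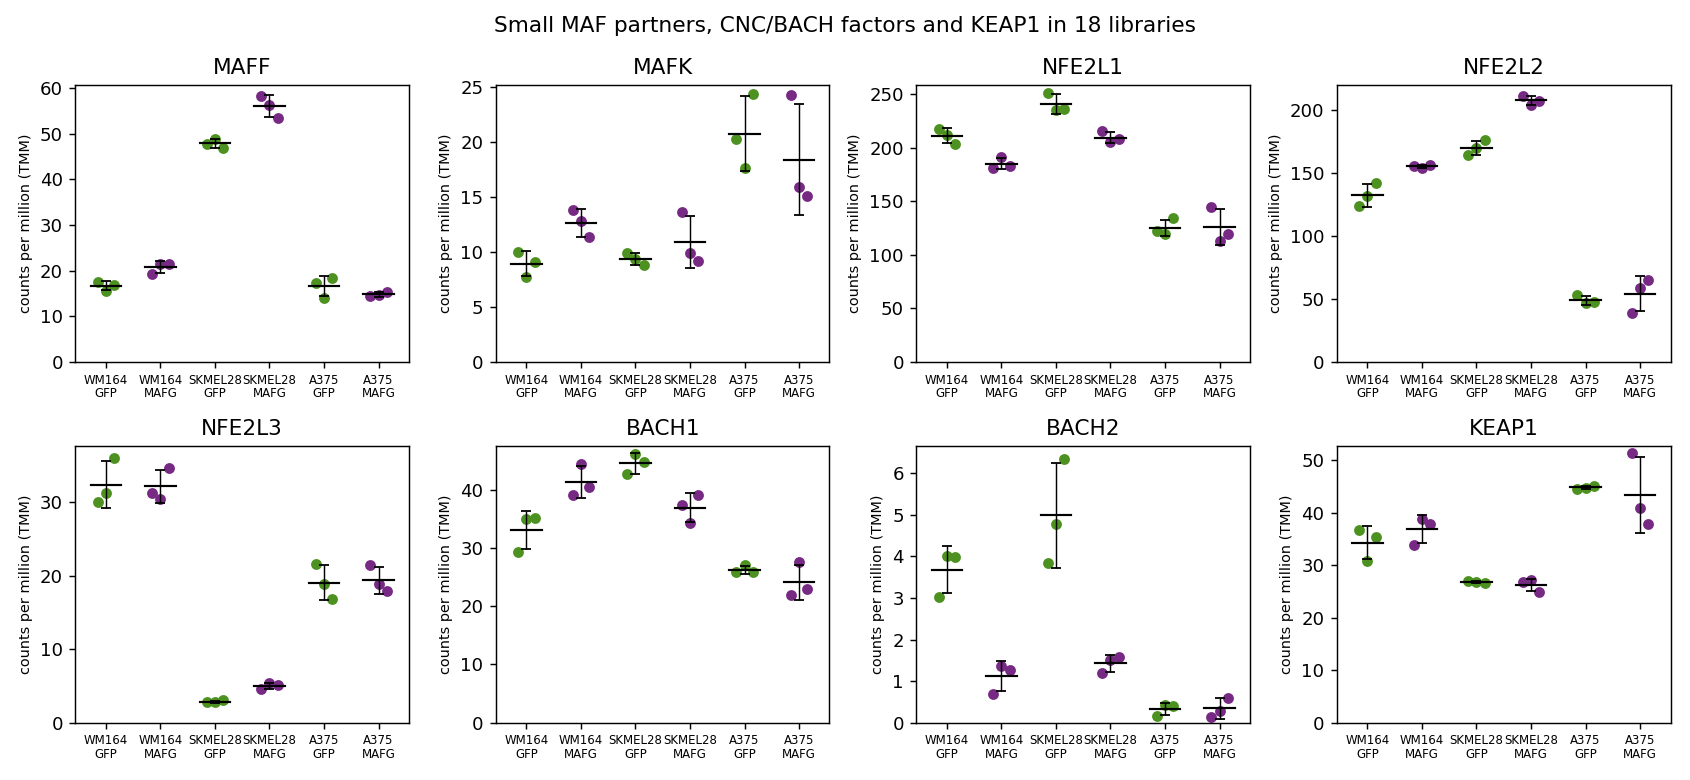
CPM of 8 of the genes (all but MAFG and SIRT7) in each of 18 libraries. Points are libraries (green GFP, purple MAFG), lines are means and bars are SD (n = 3), and every axis starts at 0. NFE2L3 is low in SKMEL28 (2.87 CPM with GFP), MAFF is high there (47.9 CPM) and BACH2 is low in A375 (0.33 CPM).

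The summed TPM of the 3 small MAFs rose from 8.56 ± 0.68 with GFP to 32.9 ± 3.53 with MAFG in WM164 cells, a ratio of 3.85. In SKMEL28 it rose from 23.7 ± 1.79 to 37.4 ± 0.87 (ratio 1.58), and in A375 cells from 15.2 ± 1.61 to 34.3 ± 2.91 (ratio 2.26). The groups did not overlap, and the two-sided exact permutation test gave p = 0.1 in each line, the smallest value that 3 against 3 libraries allow. MAFG made up 33.6% of this sum in WM164 cells, 16.65% in SKMEL28 cells and 27.95% in A375 cells with GFP, and 74.3%, 45.4% and 73.6% with MAFG. MAFF held the largest share in SKMEL28 GFP cells (73.5%). By CPM per exonic kilobase, where MAFG's change is smaller, the sums rose 1.68, 1.28 and 1.24 times. MAFG's share on that scale was 49.7% with GFP and 60.8% with MAFG in WM164, 30.1% and 36.5% in SKMEL28, and 40.4% and 57.1% in A375 cells. The summed A375 levels overlapped (exact permutation p = 0.2).

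The summed TPM of the 5 CNC and BACH genes was 9.46 ± 0.03 times that of the small MAFs in WM164 GFP libraries and 2.91 ± 0.25 times with MAFG. In SKMEL28 it was 5.17 ± 0.28 and 3.17 ± 0.12 times, and in A375 cells 3.60 ± 0.51 and 1.46 ± 0.14 times. The small MAF sum holds MAFG itself, so a higher MAFG level lowers this ratio by arithmetic. The CNC and BACH sum alone was at 81.0 ± 6.75 TPM with GFP and 95.1 ± 3.17 with MAFG in WM164. In SKMEL28 this sum was at 122.1 ± 4.06 and 118.4 ± 2.16 TPM. In A375 cells it was at 54.5 ± 8.95 and 50.3 ± 8.4 TPM. By CPM per exonic kilobase the WM164 sum was at 56.9 ± 0.57 and 54.8 ± 1.10. By CPM per exonic kilobase the ratio was 5.76 ± 0.31 and 3.30 ± 0.23 in WM164 and 3.90 ± 0.24 and 2.85 ± 0.13 in SKMEL28 cells. In A375 cells it was 2.58 ± 0.31 and 2.10 ± 0.26 on that scale, and the libraries of both constructs overlapped. The share of NFE2L2 in the CNC and BACH sum depended on the length used: in WM164 GFP libraries it was 45.9% by TPM and 15.5% by CPM per exonic kilobase, and NFE2L1 had 41.6% and 63.1%. In A375 GFP libraries NFE2L1 was above NFE2L2 on both scales (46.3% and 33.6% by TPM, 65.6% and 10.1% by CPM per exonic kilobase).

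**Figure D4:**
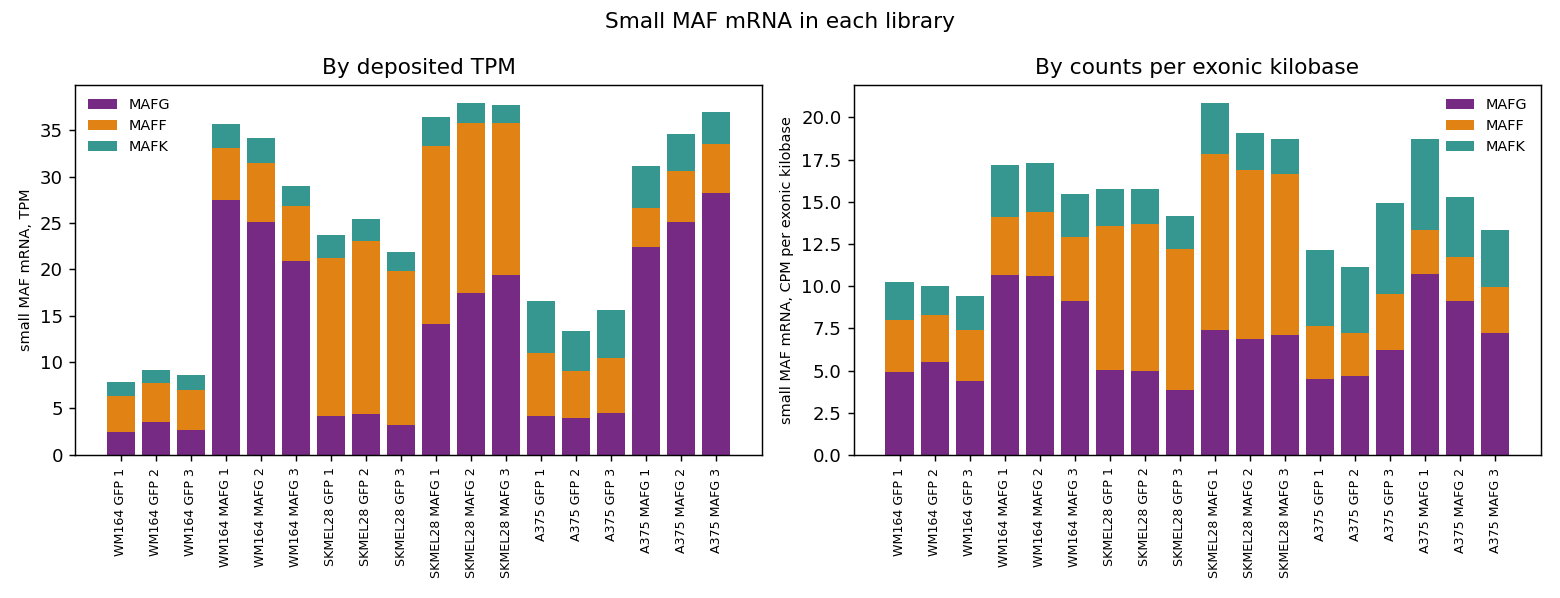
Stacked bars of MAFG, MAFF and MAFK in each library, as deposited TPM (left) and as CPM per exonic kilobase (right). The MAFG segment grows in every line with MAFG, and by more on the TPM scale, where the WM164 sum goes from 8.56 to 32.9.

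Without MAFG overexpression, the lines differed in most of the 10 genes, and MAFG did not pass in any pair by counts. In GFP libraries 7 of 10 genes differed between A375 and WM164 (71.5% of all genes), 9 between A375 and SKMEL28 (68.6%) and 6 between WM164 and SKMEL28 (56.8%), so these shares lay near the background. Without one library these counts were 7, 8 to 9 and 4 to 5 in the same order. The NFE2L1 call between WM164 and SKMEL28 was lost without any one of 6 libraries. The SIRT7 call between A375 and SKMEL28 was lost without 3 of 6 taken singly. MAFG was at 25.8 ± 2.91 CPM in WM164 cells, 24.1 ± 3.47 in SKMEL28 cells and 27.0 ± 4.98 in A375 cells, with adjusted p from 0.328 to 0.707. On the log2(TPM + 1) scale with limma, MAFG differed in 2 of the 3 pairs. It was higher in A375 than in WM164 cells by 0.43 (adjusted p = 0.0152), where the median of all genes lay at 0.35. WM164 minus SKMEL28 was -0.351 (adjusted p = 0.0472), the opposite sign to the 0.10 found by counts. The median of all genes for that pair lay at -0.42, so both MAFG values were near a shift shared by all genes.

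The largest differences between lines were those of NFE2L3 and BACH2. NFE2L3 was higher in WM164 than in SKMEL28 by 3.50 (log2, SE 0.13, adjusted p = 9.87e-15) and higher in A375 than in SKMEL28 by 2.73 (SE 0.13, adjusted p = 1.35e-13). BACH2 was at 3.68 ± 0.56 CPM in WM164 cells, 4.99 ± 1.27 in SKMEL28 cells and 0.33 ± 0.15 in A375 cells. A375 was lower than WM164 (A375 minus WM164 -3.48, SE 0.45, adjusted p = 7.3e-07), while WM164 and SKMEL28 did not differ beyond their spread (adjusted p = 0.348).

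MAFF was higher in SKMEL28 than in the other lines (A375 minus SKMEL28 -1.53, adjusted p = 9.96e-12, and WM164 minus SKMEL28 -1.52, adjusted p = 3.13e-11), and MAFK was higher in A375 (A375 minus WM164 1.22, adjusted p = 5.08e-06). NFE2L2 was lower in A375 than in WM164 (-1.43, adjusted p = 1.24e-09) and than in SKMEL28 (-1.79, adjusted p = 4e-11). NFE2L1 was lower in A375 than in WM164 (-0.75, adjusted p = 3.35e-08), BACH1 was lower in A375 than in SKMEL28 (-0.76, adjusted p = 6.81e-07), and KEAP1 was higher in A375 than in SKMEL28 (0.74, adjusted p = 1.9e-06). The smaller BACH1 difference between A375 and WM164 (-0.33) turned to 0.56 on the log2(TPM + 1) scale, and the KEAP1 difference between WM164 and SKMEL28 (0.35) to -0.19. The medians of all genes on that scale were 0.35 and -0.42 for these pairs. The BACH1 difference between A375 and SKMEL28 did not pass there (-0.277, adjusted p = 0.206 from limma), with the median of all genes at -0.05.

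Ordered by mean CPM over the 6 conditions, several neighbours could not be told apart in the model of 18 libraries. The 3 GFP conditions formed the low end for MAFG with no passing step (adjusted p = 0.594 and 0.707), SKMEL28 MAFG lay above them (adjusted p = 0.00668 against A375 GFP), and A375 MAFG and WM164 MAFG at the top did not differ (adjusted p = 0.304). For BACH2 the order ran from A375 with either construct through WM164 MAFG and SKMEL28 MAFG (1.11 and 1.43 CPM, adjusted p = 0.48) to the GFP conditions of WM164 and SKMEL28. For NFE2L3 the steps from SKMEL28 GFP to SKMEL28 MAFG, to A375 and to WM164 all passed, and the constructs within A375 and within WM164 did not differ. SIRT7 had no passing step between neighbours from SKMEL28 GFP (9.54 CPM) to A375 GFP (12.6 CPM).

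NFE2, the CNC factor of the blood lineages, is not among the 10 genes and was near absent. It had 17 to 37 counts per library in WM164, 3 to 50 in A375 and 0 to 4 in SKMEL28 cells, where it was not tested. Its change did not pass in WM164 or A375 cells.

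Promoter sequences from RefSeq (GRCh38.p14, a window around the start) were at hand for 8 of the 10 genes and were searched on both strands for the core TGCTGA of the MAF recognition element. The 8 genes had 14 promoter entries, and the core was found in 4 of these (28.6%, 1 in each of 4 genes), against 17.3% of 35116 promoters. The lines show 30 bases around it, with the core in capitals as read along the gene, which appears as its reverse complement for BACH2, NFE2L3 and BACH1. These 4 are all the genes in which the core was found, and they were not chosen by their response. Each passed in WM164 or SKMEL28 cells, and so did MAFG, MAFF and NFE2L2, whose promoter entries had no core. The windows lie at chr6:90296802-90296831 (minus strand) for BACH2, chr7:26151979-26152008 (plus) for NFE2L3, chr17:48048531-48048560 (plus) for NFE2L1 and chr21:29299335-29299364 (plus) for BACH1.
BACH2: gccgccgccgccTCAGCAgcagcagcagca
NFE2L3: cgcccttggcttTCAGCAaggatggcccag
NFE2L1: cgacgggatggTGCTGAggtgcaggaggcg
BACH1: ggctgtgacacaTCAGCAccgccctcgcgg
The antioxidant response core TGACNNNGC was found in 2 of the 14 entries (14.3%, against 13.3% of all promoters), 1 each of KEAP1 and MAFF, and the longer TGANTCAGC in 0 (against 1.36%). The E-box CACGTG stood in 3 of the 14 (21.4%, against 7.26%), 1 of MAFG and 2 of MAFF, and TCATGTG, a form bound by MITF, in 1, that of MAFG (7.14%, against 2.92%). A match of letters is a description and not a binding site.

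Of the 25 antioxidant response element (ARE) target genes, 11 of 21 tested fell and 1 rose in WM164 cells, and 15 of 23 fell and 2 rose in SKMEL28 cells. In A375 cells 1 of 22 fell. The share of all genes that fell was 15.6%, 15.3% and 0.0634%, and the list medians were -0.27, -0.49 and -0.10 against medians of all genes near 0. The list and its direction were chosen with earlier results of these data known. NQO1, a quinone reductase and the usual NRF2 target, fell in all 3 lines, with log2 values of -0.44 in WM164 (adjusted p = 3.06e-06), -1.48 in SKMEL28 (adjusted p = 1.84e-10) and -0.51 in A375 cells (adjusted p = 0.0433). It was the single gene of any pathway list called in A375. The count of list genes called there was 3 without MAFG replicate 1 and 0 without any other one of the 6 libraries.

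In WM164 cells the iron storage genes FTH1 and FTL were among the strongest, at 2183 ± 248 CPM with GFP and 1162 ± 38.3 with MAFG for FTH1 and at 888 ± 54.6 and 531 ± 8.40 for FTL. SLC7A11, the cystine transporter, went from 63.5 ± 3.71 to 41.4 ± 0.42 CPM in WM164 and from 72.2 ± 5.58 to 18.1 ± 0.90 CPM in SKMEL28 cells. PRDX1, a peroxiredoxin, fell by 0.77 in SKMEL28 (adjusted p = 6.49e-07) and was at 0.19 in WM164 (adjusted p = 0.113). On the log2(TPM + 1) scale 4 of 21 ARE genes fell and 2 rose in WM164 cells, where 2.79% of all genes fell and 11.8% rose. On that scale 10 of 20 fell and 0 rose in SKMEL28 cells, where 14.7% of all genes fell and 3.22% rose.

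Few of the genes that process NRF1 or turn over NRF2 passed in WM164 cells, and none passed in A375 cells. SYVN1, an endoplasmic reticulum ubiquitin ligase in both lists, rose in WM164 cells by 0.57 (adjusted p = 1.6e-06), from 45.9 ± 1.41 to 68.3 ± 2.49 CPM. SEL1L, its partner, rose by 0.43 (adjusted p = 1.01e-05), so 2 of 9 NRF1 processing genes rose and 0 fell, and 1 of 16 NRF2 turnover genes rose and 0 fell, beside 16.2% of all genes rising and 15.6% falling. In SKMEL28 cells 3 of 16 NRF2 turnover genes rose and 3 fell, near the shares over all genes (14.6% rising and 15.3% falling). Among them were GSK3A (-0.59, adjusted p = 1.37e-05), the autophagy receptor gene SQSTM1 (-0.41, adjusted p = 5.14e-05) and AMER1 (0.61, adjusted p = 0.000498). OGT was the 1 of 9 NRF1 processing genes that rose (0.26, adjusted p = 0.00303).

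Of 33 proteasome subunit genes, 8 rose and 2 fell in WM164 cells and 6 rose and 4 fell in SKMEL28 cells, beside 16.2% and 14.6% of all genes rising. In A375 cells 0 passed, beside 0.78% of all genes rising. PSMB5 and PSMC6 led in WM164 (0.57 and 0.60, adjusted p = 5.76e-06 and 1.26e-05), with PSMB4 at 0.33 (adjusted p = 0.000501). In SKMEL28 cells PSMC4 fell by 0.65 (adjusted p = 1.91e-06) while PSMD7 and PSMA2 rose by 0.52 and 0.41 (adjusted p = 5.96e-05 and 0.000199). On the log2(TPM + 1) scale 5 of 33 rose and 0 fell in WM164 (11.8% and 2.79% of all genes), and 2 rose and 4 fell in SKMEL28 cells (3.22% and 14.7%). CHD8 and DNMT3B, partners of MAFG and BACH1 in a repressor complex, did not pass in any line. No gene of these lists but NQO1 passed in A375 cells with edgeR.

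**Figure D5:**
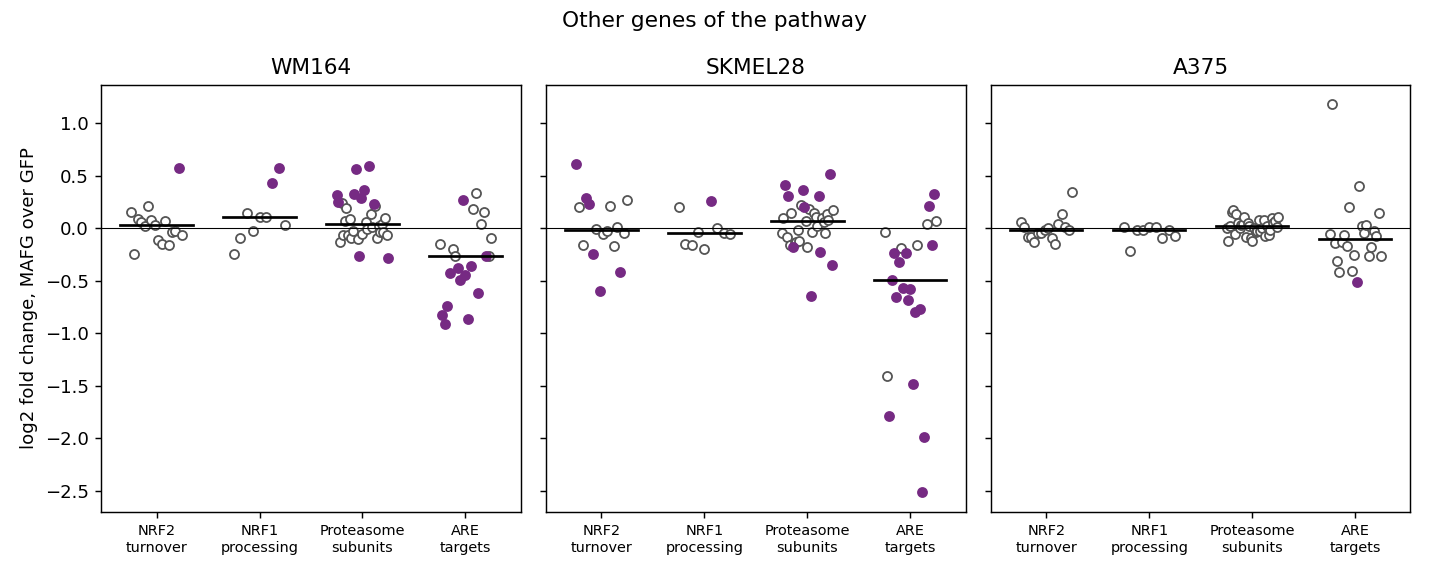
Log2 fold change, MAFG over GFP, of each tested gene in 4 lists and 3 lines. Filled points passed an adjusted p of 0.05 and bars are list medians. The ARE target median is -0.27 in WM164 and -0.49 in SKMEL28, and the other medians lie within 0.11 of 0.

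Among the genes annotated within 50 kb of MAFG, ARHGDIA (-0.32, adjusted p = 0.000929), ANAPC11 (-0.34, adjusted p = 0.0149) and PCYT2 (-0.23, adjusted p = 0.0478) fell in WM164 cells. In SKMEL28 cells ALYREF rose (0.43, adjusted p = 0.000235) and ASPSCR1 fell (-0.35, adjusted p = 0.0348), and none passed in A375 cells. The remaining neighbours tested did not pass, PYCR1 and SIRT7 among them. Of all genes tested, 31.8% passed for WM164 and 29.9% for SKMEL28. Whether genes near MAFG passed more often than other genes was not tested. MAFG-DT, a lncRNA read away from the MAFG start, did not pass in any line. The opposite-strand lncRNA ENSG00000264769, which shares 224 exonic bases with MAFG, was at 0 CPM in the mean of every GFP condition.

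Over the 18 libraries, the genes whose log2 CPM followed MAFG most closely were TFAP2B (Pearson r = 0.859), WSCD1 (0.853), LPAR1 (0.842), UNC5C (0.833) and CNTN3 (0.817). TIMM10B, GTF2H1 and LOX were closest to MAFF (0.989, 0.988 and 0.986), NUDT16L1, BOP1 and RAB35 to MAFK (0.951, 0.946 and 0.937), RPL21, AIF1L and RUNX1 to NFE2L3 (0.994, 0.991 and 0.988), and RUFY3, TTLL7 and CCL28 to BACH2 (0.953, 0.945 and 0.941). These values describe 18 libraries of 3 lines, which share line and construct, and carry no p.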

How the data were processed

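The deposited data were gene-level count and TPM values for 18 libraries. The methods state that the authors ran cutadapt, removed pairs with a short end, mapped to GRCh38 by STAR and assigned unique reads to genes in featureCounts. The deposited count values are raw whole numbers, and the deposited TPM values are scaled by length and library total. The submitters' processing notes name cutadapt 1.8.1, STAR 2.7.7a, RSEM 1.3.0, DESeq2 and GRCh38. The methods describe a stranded kit and the labels one that does not keep strand, and the strand setting and annotation release are not given in the sources used here.

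Counts were tested with R 4.3.3 and edgeR 4.0.16 (TMM, filterByExpr, quasi-likelihood F test, Benjamini-Hochberg adjustment over all genes), MAFG against GFP within the 6 libraries of a line. Differences between lines and between responses were contrasts in one model of 18 libraries. A call is an adjusted p of 0.05 or less, with a log2 fold change above 1 as the study's added limit. The depth was 20122172 to 39025042 counts per library. Alternatives were DESeq2 1.42.0, edgeR with DESeq2 size factors, dropping the count filter or requiring 10 counts per library, limma 3.58.1 on log2(TPM + 1) or log2(TPM + 0.1) for genes at 1 TPM or more in 3 libraries, blocking on the replicate number, one model of all 18 libraries for the responses, summed MAFG and SIRT7 counts, and each library left out. Small MAF sums were compared by exact permutation with scipy 1.17.1.

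Positions, overlaps and coding sequences came from GENCODE release 44, which held 99.4% of the gene identifiers, and promoters from RefSeq. The scripts were tested on simulated data. Named genes were the 10 members, NFE2, up to 3 genes of smallest adjusted p per pathway list and line, genes within 50 kb of MAFG and the genes most correlated with members. PRDX1 and NQO1 in lines where this rule did not name them, and the counts per TPM, were chosen after values were seen. The members and lists were chosen with earlier results of these data known. Figures were drawn with matplotlib 3.10.9.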

Additional observations from a re-analysis of the deposited data

Results flagged for a closer look

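In 5 cases the response to MAFG differed between lines by the test of the difference itself (log2, edgeR, 18 libraries). BACH1 responded more in WM164 than in SKMEL28 cells (0.59, adjusted p = 0.00599), rising in the first and falling in the second. NFE2L3 responded less in WM164 than in SKMEL28 (-0.81, adjusted p = 0.00404) and less in A375 than in SKMEL28 cells (-0.78, adjusted p = 0.00802). These 3 differences were kept without any one of 12 libraries. MAFF (-0.48, adjusted p = 0.0311) and BACH1 (-0.45, adjusted p = 0.0484) responded less in A375 than in WM164 cells, and these calls were lost without 7 and without 11 of 12 libraries taken singly. Of all genes, 13.7% differed in response between WM164 and SKMEL28, 9.51% between A375 and SKMEL28 and 9.21% between A375 and WM164.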

How the results depend on the processing

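The response of MAFG kept its direction in each line under every alternative run. Its call in A375, missed in the main test (0.80), was made with all 18 libraries in one model (0.81), DESeq2 (0.80), no count filter (0.80), limma on log2(TPM + 1) (2.33) and on log2(TPM + 0.1) (2.55), each of which then called 1 member there, where DESeq2 size factors and at least 10 counts called 0. The log2 fold change without one library was 0.955 to 1.12 in WM164, 0.52 to 0.706 in SKMEL28 and 0.686 to 0.965 in A375. Members called fell from 7 to 4 in WM164 and from 7 to 3 in SKMEL28 with all 18 libraries in one model, and to 3 and 2 on both TPM scales; without one library they were 5 to 7 in both and 0 to 1 in A375. Pathway list genes called, 24 in WM164, 34 in SKMEL28 and 1 in A375, were 14 and 12 in WM164 with TPM pseudocounts of 1 and 0.1 and 20 and 19 in SKMEL28, with 20 in the 18-library model. In A375 they were 3 in that model, 2 with DESeq2, 2 with no count filter and 0 on both TPM scales. Without one library they were 20 to 29, 26 to 32 and 0 to 3. Members whose response differed between A375 and WM164 went from 2 (BACH1 and MAFF) to 3 with DESeq2, which added BACH2, to 1 with no count filter (MAFK, adjusted p = 0.0418) and 0 to 3 without one library. On both TPM scales they were 2, MAFF and MAFK. Between A375 and SKMEL28 they went from 1 to 3 with DESeq2, 2 with no count filter, 0 on both TPM scales and 1 to 2 without one library. The small MAF sum rose 1.68, 1.28 and 1.24 times by CPM per exonic kilobase, against 3.85, 1.58 and 2.26 by TPM, and 3.68 to 4.08, 1.52 to 1.64 and 2.13 to 2.36 without one library. Reversed on log2(TPM + 1) and log2(TPM + 0.1) were NFE2L1 with MAFG in WM164 (0.077 and 0.079) and, in GFP cells, BACH1 (0.564 and 0.684) and MAFF (0.422 and 0.497) between A375 and WM164 and KEAP1 (-0.186 and -0.197) and MAFG (-0.351 and -0.444) between WM164 and SKMEL28. MAFF and MAFG passed on these scales only. SIRT7, which passed neither in the main test nor on TPM, also changed sign in GFP cells between WM164 and SKMEL28 (-0.149 and -0.173, against 0.354). The cause was not tested. The TPM scales moved the median of all genes by 0.14 in WM164 and -0.14 in SKMEL28 with a pseudocount of 1. In GFP cells the median of all genes was 0.35 for A375 minus WM164 and -0.42 for WM164 minus SKMEL28 with that pseudocount. With 0.1 these medians were 0.46 and -0.54.

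Same-numbered GFP and MAFG libraries did not deviate together over all genes (correlations -0.02 to 0.01). Such a correlation could miss a batch that acts on few genes. The sources used here do not say whether these libraries share more than a number. With the replicate block, 0 members differed in response between A375 and WM164 (2 without it) and 0 pathway list genes passed in A375 (1 without it), and MAFG's log2 fold change was 1.04, 0.64 and 0.80. BACH2 in A375, NFE2 and the lowest NFE2L3 counts are limited by depth.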
